A study of Mus musculus with 12 samples.

Results

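The genes described here are 40 mouse genes of the lysosome: acid hydrolases, their activator proteins, and proteins of the lysosomal membrane. They were taken by symbol from a list of gene names that was drawn up with earlier results of these data known, and all 40 were found among the 54532 genes of the count table. All 40 also passed the filter on low counts, as did 14293 genes in all. By role they were 9 glycosidases of glycogen, glycoproteins and glycolipids, 8 enzymes of glycosaminoglycans and sulfated substrates, and 8 lipid hydrolases, activators and cholesterol carriers. A further 5 were phosphatases, a peptidase, a thioesterase and the progranulin gene, 3 were nucleases, and 7 were proteins found in the lysosomal membrane.

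Lysosomes are acidic organelles in which proteins, lipids, glycans and nucleic acids are broken down, and phagosomes that carry bacteria fuse with them. Most lysosomal hydrolases are made in the endoplasmic reticulum and carried to the lysosome by mannose 6-phosphate receptors, and loss of a single hydrolase usually causes a storage disease. Many lysosomal genes hold binding sites for the MiT/TFE transcription factors, of which TFEB is the best known. Dendritic cells (DCs) are known for weaker lysosomal proteolysis than macrophages, which preserves peptides for presentation to T cells.

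The cells were CD11c+ cells of mouse spleen, left after B, T and NK cells had been removed with antibodies to CD45R, CD90.2 and CD49b, and described in the labels as a mixture of type 1 and type 2 conventional DCs. KO libraries came from SLC29A3-/- mice, which lack ENT3, a nucleoside transporter of lysosomes, and WT libraries from C57BL6 mice; the labels name no further allele. Treated cells were given STmDfla, attenuated Salmonella typhimurium, at MOI (bacteria per cell) 10 in a pulse of 30 min, were washed, and were kept for 3 h; untreated cells received no bacteria. The 4 groups were treated KO, untreated KO, treated WT and untreated WT, with 3 libraries in each, numbered 1 to 3. Whether those 3 stand for different mice is not stated. In every group number 1 held Y-linked counts and almost no Xist, while numbers 2 and 3 held Xist and no counts of Ddx3y, so number 1 did not come from the same mouse as the others, but numbers 2 and 3 may share one. A p-value here speaks of the spread among libraries.

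Total counts ranged from 15946516 to 19087007 in treated KO, from 15814761 to 18561946 in untreated KO, from 15693172 to 24074596 in treated WT and from 16432936 to 18107470 in untreated WT. Counts of Slc29a3 over the whole gene did not separate the genotypes past the threshold, and the labels do not say which part was deleted. They gave a log2 fold change of -0.46 (adjusted p = 0.0806) in treated KO over WT and of -0.44 (adjusted p = 0.111) untreated, by edgeR's quasi-likelihood test. Markers of DCs were the most abundant of the marker lists in all 4 groups, mostly through Cd74, H2-Aa and H2-Ab1. The libraries were not equal in the markers of other cells. The 5 erythroid markers summed to between 1698 and 4631 CPM (counts scaled by library size and TMM factors) in KO libraries and between 2.55 and 9.13 CPM in WT libraries. The 7 neutrophil markers summed to between 52.3 and 980.1 CPM in KO libraries and between 7.28 and 17.7 CPM in WT libraries. Sums of the 6 B cell markers were 74.4 to 95.0 CPM in libraries numbered 1 and 11.0 to 24.8 CPM in the others. For the 6 T cell markers they were 12.0 to 18.2 CPM in libraries numbered 1 and 2.14 to 6.97 CPM in the others. In bulk samples such as these, fewer cells of a type and less RNA per cell cannot be told apart.

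Together the 40 genes made up 8549 ± 1187 CPM in treated KO, 9350 ± 1430 CPM in untreated KO, 5719 ± 748 CPM in treated WT and 5898 ± 524 CPM in untreated WT (SD, n = 3 each). The largest single part was Psap, with 2650 ± 242 CPM in treated KO and 3066 ± 408 CPM in untreated KO. In treated WT it had 1460 ± 278 CPM and in untreated WT 1663 ± 249 CPM. Psap, which encodes prosaposin, the precursor of the saposin activators of sphingolipid breakdown, was the most abundant member per kilobase of transcript in all 4 groups. On that per-length scale its level was 966 ± 88.2 CPM per kb in treated KO, 1117 ± 149 in untreated KO, 532 ± 101 in treated WT and 606 ± 90.6 in untreated WT. At the other end, Gpnmb, a membrane glycoprotein of phagocytes, had 0.48 ± 0.0756 CPM per kb in untreated WT, the lowest level there of the 40 on that scale. Sgsh, the sulfamidase of heparan sulfate breakdown, had the lowest per-length level of the 40 in treated KO and treated WT, and Galc, the enzyme of galactosylceramide, in untreated KO. Across the 5 comparisons, 27 of the 40 members passed an adjusted p of 0.05 at least once in the fit without a block for library number, and 13 (Arsa, Arsb, Cd63, Fuca1, Gaa, Galns, Gm2a, Gusb, Ids, Idua, Lipa, Ppt1 and Tpp1) in none. How many of all tested genes passed at least once was not counted, so the 27 cannot be set against a background.

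**Figure D1:**
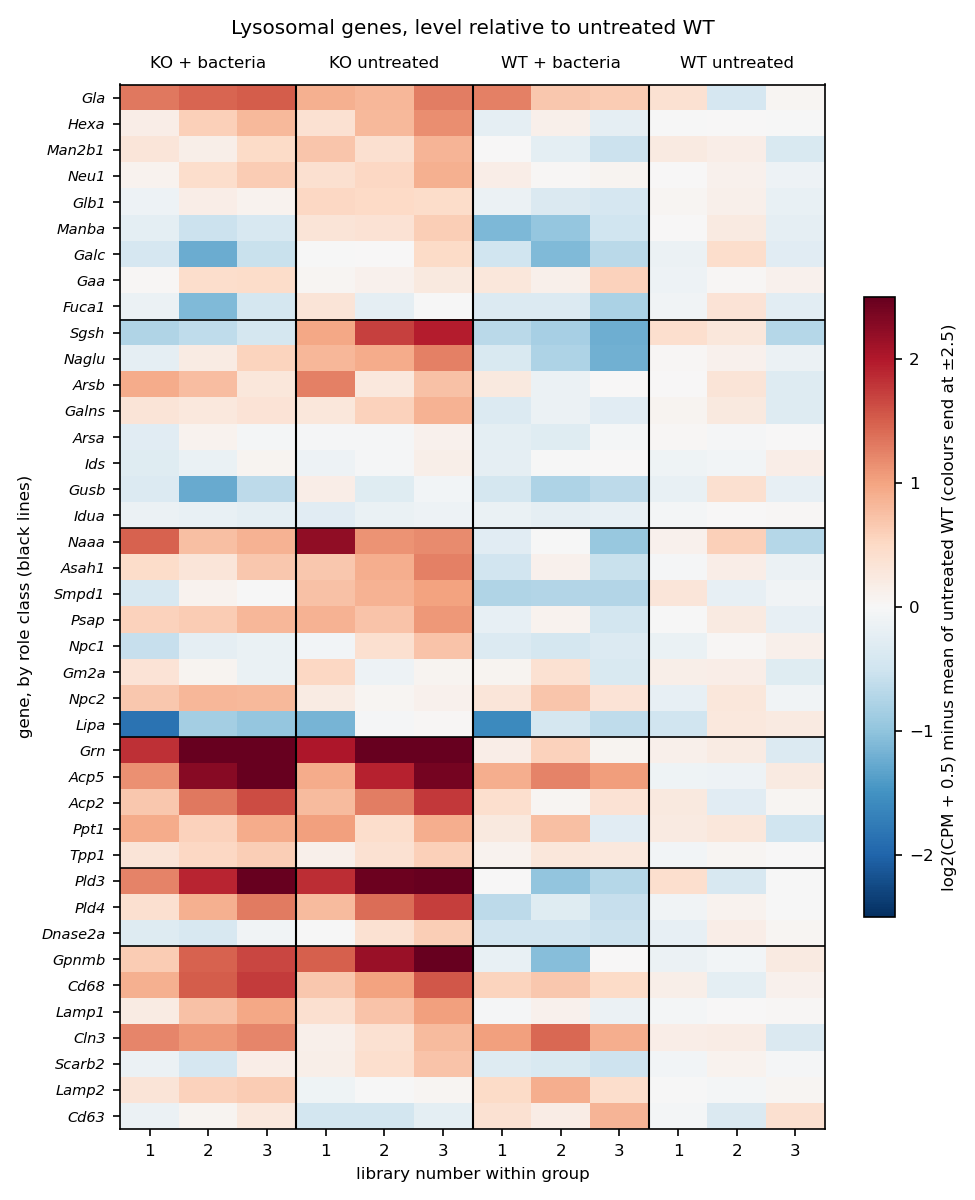
Level of each of the 40 genes (rows, in 6 role classes parted by black lines) in each of the 12 libraries (columns), as log2(CPM + 0.5) minus the mean of the 3 untreated WT libraries, with colours ending at 2.5 in either direction. Grn, Acp5, Pld3, Pld4, Gpnmb and Cd68 are red in KO libraries and palest there in those numbered 1, while Cln3 and Lamp2 are redder in treated than in untreated libraries and Sgsh is bluer.

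Promoters were looked at because many lysosomal genes are known to carry the CLEAR element, whose core is CACGTG. RefSeq promoter sequences (GRCm38.p6, from 250 bases before to 50 after the start) were at hand for 37 of the 40 genes; Npc1, Galns and Asah1 had none. CACGTG, which reads the same on both strands, was found in 8 of the 37 genes (21.6%), against 2187 of 27025 genes in all (8.09%). A gene was counted if any of its promoters held the motif, and some genes have several. The 8 were Arsa, Cln3, Gaa, Gla, Glb1, Lamp1, Naglu and Sgsh. TCATGTGA or its reverse complement TCACATGA was found in 5 of the 37 genes (13.5%), namely Acp5, Gla, Grn, Ppt1 and Tpp1, against 310 genes in all (1.15%). Occurrences of the 2 motifs cannot overlap, and a match describes the letters, not a bound site. Stretches upstream of the RefSeq start are given below for the genes with either motif that passed in some comparison without a block. Capitals mark every occurrence of either motif in the stretch. Gla holds both. Lamp1 holds CACGTG 4 times, and Cln3 and Gla hold it 2 times each. For Cln3 and Acp5 the whole stretch lies inside the span of the gene in the count table. The RefSeq start used for these genes is therefore an internal one.
Cln3, chr7:126583332-126583405, minus strand: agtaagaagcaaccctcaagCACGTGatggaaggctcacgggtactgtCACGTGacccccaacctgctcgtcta
Gla, chrX:134601174-134601252, minus strand: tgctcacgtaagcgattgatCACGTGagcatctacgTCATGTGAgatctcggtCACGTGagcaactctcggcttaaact
Glb1, chr9:114401010-114401055, plus strand: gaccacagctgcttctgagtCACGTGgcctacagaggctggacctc
Lamp1, chr8:13159080-13159160, plus strand: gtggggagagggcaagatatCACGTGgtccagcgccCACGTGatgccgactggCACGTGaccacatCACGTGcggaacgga
Naglu, chr11:101070001-101070046, plus strand: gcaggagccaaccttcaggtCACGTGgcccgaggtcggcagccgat
Sgsh, chr11:119355514-119355559, minus strand: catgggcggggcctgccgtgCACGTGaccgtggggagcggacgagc
Acp5, chr9:22130662-22130709, minus strand: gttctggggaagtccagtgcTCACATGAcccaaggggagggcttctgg
Grn, chr11:102430276-102430323, plus strand: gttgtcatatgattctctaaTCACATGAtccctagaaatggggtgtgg

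In untreated cells, 19 of the 40 genes were higher in KO than in WT (47.5%) and 0 were lower, where 9.50% of all tested genes were higher and 3.46% lower, 13.0% in all. The call was an adjusted p below 0.05 in edgeR's quasi-likelihood test, with Benjamini-Hochberg adjustment over all tested genes. The median log2 fold change of the 40 was 0.617, against 0.006 over all tested genes, and 34 of the 40 were positive. After bacteria, 13 genes were higher in KO (32.5%) and 0 lower, where 9.21% of all tested genes were higher and 4.89% lower, 14.1% in all. The median was then 0.454, against -0.005 over all tested genes, and 33 of the 40 were positive; the median was 0.299 without treated WT number 3. All 13 were among the 19. The groups did not overlap in any of the 19 calls untreated or the 13 after bacteria, and among all 40 members they did not overlap in 25 untreated (24 higher and 1 lower in KO) and in 20 after bacteria, all 20 higher. Of all tested genes, the groups did not overlap in 37.4% untreated (21.0% higher and 16.4% lower in KO) and in 28.8% after bacteria (15.6% higher and 13.2% lower). The 2 comparisons share no library, but libraries of the same genotype and number deviated together across treatments, so the second is not independent of the first. Libraries of the same number also deviated together across genotypes in 3 of 3 pairs after bacteria (r from 0.115 to 0.314) and by more than 0.1 in 2 of 3 untreated (lowest r 0.0787). A fit with a block for library number across all groups called 21 higher and 2 lower in untreated KO, where 18.1% of all tested genes were called, and 15 higher and 2 lower after bacteria, where 20.6% were. It kept all 19 and all 13 calls and added Arsb and Tpp1 untreated and Man2b1 and Acp5 after bacteria. The 2 lower genes were Lipa and Cd63 in both treatments, Lipa at -0.39 (adjusted p = 0.0237) untreated and -0.34 (adjusted p = 0.0416) after bacteria, and Cd63 at -0.39 (adjusted p = 0.0419) and -0.41 (adjusted p = 0.0316). Calls given below are those of the fit without a block unless it is named.

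Progranulin, the product of Grn (chr11:102430315-102437048, plus strand, mm10), is a secreted and lysosomal protein needed for normal hydrolase function. Its level was 279, 399.6 and 611 CPM in the untreated KO libraries numbered 1, 2 and 3, against 75.3, 79.0 and 54.3 CPM in those of untreated WT. After bacteria it was 246, 478 and 642 CPM in KO and 76.7, 103 and 71.7 CPM in WT. The lowest KO library was above the highest WT library in both treatments, and KO number 1 was the lowest of its group both times. The log2 fold change of KO over WT was 2.63 (SE 0.35, adjusted p = 0.000971) untreated (6.18-fold) and 2.44 (SE 0.35, adjusted p = 0.00138) after bacteria (5.43-fold).

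The nucleases of the set include PLD3 and PLD4, single-strand 5′ exonucleases of the endolysosome that limit signalling through Toll-like receptors for nucleic acids. Pld3 (chr7:27532000-27553218, minus strand, mm10) had 56.6, 86.1 and 140.3 CPM in untreated KO, against 20.7, 11.5 and 15.3 CPM in untreated WT, a log2 fold change of 2.58 (5.96-fold, SE 0.42, adjusted p = 0.00239). After bacteria it had 36.8, 58.9 and 94.7 CPM in KO, against 15.5, 7.55 and 9.24 CPM in WT, a log2 fold change of 2.56 (SE 0.42, adjusted p = 0.00267). Every KO library stood above every WT library of the same treatment. Pld4 (chr12:112760655-112768990, plus strand, mm10) was more abundant, with 293, 445 and 563 CPM in untreated KO and 159.9, 180.0 and 168 CPM in untreated WT, a log2 fold change of 1.36 (SE 0.24, adjusted p = 0.00383). Its levels after bacteria were 224, 314 and 415 CPM in KO and 107, 138 and 114 CPM in WT, a log2 fold change of 1.41 (SE 0.24, adjusted p = 0.00344). For both genes KO number 3 was highest and KO number 1 lowest in both treatments. Dnase2a, the acid endonuclease of lysosomes, did not pass in either genotype comparison (log2 fold change 0.35 (SE 0.16, adjusted p = 0.178) untreated and 0.24 (SE 0.16, adjusted p = 0.351) after bacteria).

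The 2 acid phosphatases were also higher in untreated KO. Acp5 (chr9:22126727-22135711, minus strand, mm10), the tartrate-resistant phosphatase of macrophages and osteoclasts, had 302, 599 and 832 CPM in untreated KO, against 147, 145 and 185 CPM in untreated WT, a log2 fold change of 1.86 (3.63-fold, SE 0.37, adjusted p = 0.00632). After bacteria its levels were 349, 770.4 and 932 CPM in KO and 299, 373 and 325 CPM in WT. There the groups overlapped, KO number 1 lying below WT number 2, and the log2 fold change of 1.04 (SE 0.36, adjusted p = 0.0748) did not pass, though with the block for library number it did (0.93, adjusted p = 0.0355). Acp2, the lysosomal acid phosphatase of most cells, had 98.9, 138 and 196 CPM in untreated KO and 67.3, 46.4 and 59.0 CPM in untreated WT, a log2 fold change of 1.33 (SE 0.27, adjusted p = 0.00744). After bacteria it had 91.2, 142 and 179 CPM in KO and 76.5, 59.2 and 73.7 CPM in WT, a log2 fold change of 0.98 (SE 0.27, adjusted p = 0.0319). Tpp1, a tripeptidyl peptidase, and Ppt1, a palmitoyl thioesterase, did not pass in either comparison, at log2 fold changes of 0.39 and 0.77 untreated and of 0.28 and 0.52 after bacteria.

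Of the 7 membrane proteins, 3 were higher in KO in both treatments. Gpnmb (chr6:49036546-49070929, plus strand, mm10) had 9.64, 15.5 and 20.5 CPM in untreated KO and 2.77, 2.92 and 3.69 CPM in untreated WT, a log2 fold change of 2.28 (4.87-fold, SE 0.38, adjusted p = 0.00261). After bacteria it had 5.09, 9.57 and 10.9 CPM in KO and 2.68, 1.22 and 3.13 CPM in WT, a log2 fold change of 1.85 (SE 0.39, adjusted p = 0.00884). The WT levels of Gpnmb rest on 21 to 66 counts per library. Cd68, the macrosialin of macrophages, had 126, 160.4 and 235 CPM in untreated KO and 87.7, 66.9 and 85.3 CPM in untreated WT, a log2 fold change of 1.12 (SE 0.24, adjusted p = 0.00957). After bacteria it had 148, 227 and 268 CPM in KO and 118, 127 and 111 CPM in WT, a log2 fold change of 0.86 (SE 0.24, adjusted p = 0.0326). Lamp1, a major glycoprotein of the lysosomal membrane and the gene with 4 CACGTG motifs, had 372, 459 and 575 CPM in untreated KO and 273, 281 and 288 CPM in untreated WT, a log2 fold change of 0.74 (SE 0.19, adjusted p = 0.021). Its levels after bacteria were 323, 465 and 549 CPM in KO and 276, 304 and 254 CPM in WT, with a log2 fold change of 0.68 (SE 0.19, adjusted p = 0.0299). The untreated WT libraries of Lamp1 lay within a narrow range, whereas the KO libraries spread upwards from KO number 1. Lamp2, Cd63 (a tetraspanin), Cln3 (a membrane protein whose loss causes Batten disease) and Scarb2 (the receptor that carries glucocerebrosidase) did not pass by genotype. Lamp2 and Cd63 had negative values in both treatments, at -0.02 and -0.42 untreated and -0.11 and -0.44 after bacteria.

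Among the lipid enzymes and activators, 4 of 8 passed in each treatment, and they were the same 4. Naaa, an amidase of N-acylethanolamines, had 92.9, 43.2 and 44.6 CPM in untreated KO and 21.0, 29.7 and 11.7 CPM in untreated WT, a log2 fold change of 1.53 (2.89-fold, SE 0.39, adjusted p = 0.0223). After bacteria it had 55.2, 33.0 and 35.9 CPM in KO and 15.9, 19.3 and 9.90 CPM in WT, a log2 fold change of 1.46 (SE 0.39, adjusted p = 0.0284). Here KO number 1 was the highest KO library, unlike Grn, Pld3 and Pld4. Asah1, acid ceramidase, had 82.9, 97.3 and 125 CPM in untreated KO and 50.7, 58.1 and 47.0 CPM in untreated WT, a log2 fold change of 0.97 (SE 0.19, adjusted p = 0.00619). After bacteria it had 70.9, 64.1 and 82.5 CPM in KO and 37.1, 55.4 and 34.8 CPM in WT, a log2 fold change of 0.77 (SE 0.19, adjusted p = 0.0209). Psap (chr10:60277627-60302597, plus strand, mm10) had 2998.3, 2695.5 and 3503.4 CPM in untreated KO and 1641.5, 1921.9 and 1426.1 CPM in untreated WT, a log2 fold change of 0.88 (1.84-fold, SE 0.16, adjusted p = 0.00413). In no library of KO was Psap as low as in any library of WT. Its levels after bacteria were 2472.5, 2551.3 and 2925.4 CPM in KO and 1424.9, 1753.5 and 1200.1 CPM in WT, a log2 fold change of 0.86 (SE 0.16, adjusted p = 0.00505). Slc29a3 is also on chromosome 10, and whether sequence near the deleted gene bears on the Psap difference was not tested. Smpd1, acid sphingomyelinase, was 0.92 (SE 0.21, adjusted p = 0.0119) untreated and 0.73 (SE 0.22, adjusted p = 0.0412) after bacteria as log2 fold change. The GM2 activator Gm2a, the cholesterol exporters Npc1 and Npc2 and the acid lipase Lipa did not pass, and Lipa was negative in both treatments (-0.33 untreated and -0.35 after bacteria).

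Among the glycan-degrading enzymes the log2 fold changes by genotype were mostly below 1. Of the 9 glycosidases, 5 were higher in untreated KO and 1, Hexa, also after bacteria. Gla, the alpha-galactosidase of globotriaosylceramide, had 48.4, 46.4 and 63.6 CPM in untreated KO and 33.9, 19.2 and 26.9 CPM in untreated WT, a log2 fold change of 0.99 (SE 0.22, adjusted p = 0.0115). The other 4 were Hexa (the alpha subunit of beta-hexosaminidase, 0.83 untreated and 0.65 after bacteria), Man2b1 (alpha-mannosidase, 0.64), Neu1 (sialidase, 0.62) and Glb1 (beta-galactosidase, 0.49). Gaa (glycogen), Manba (beta-mannosidase), Galc (galactocerebrosidase) and Fuca1 (fucosidase) did not pass, at 0.02 to 0.45 untreated and -0.04 to 0.49 after bacteria. Glb1 shares 6172 bases of the same strand with Tmppe, which held 165 counts per library on average against 297 for Glb1, so reads of this pair are not certain to be split rightly. Of the 8 glycosaminoglycan enzymes and sulfatases, Naglu and Sgsh, which act in heparan sulfate breakdown, were higher in untreated KO. Naglu had 16.1, 17.1 and 21.7 CPM in untreated KO and 8.99, 9.49 and 7.94 CPM in untreated WT, a log2 fold change of 1.05 (SE 0.25, adjusted p = 0.0145), and 1.04 (SE 0.25, adjusted p = 0.0188) after bacteria. Sgsh had 5.29, 9.09 and 11.0 CPM in untreated KO and 3.46, 3.08 and 1.30 CPM in untreated WT, a log2 fold change of 1.69 (3.23-fold, SE 0.38, adjusted p = 0.0114), but 0.42 (SE 0.42, adjusted p = 0.551) after bacteria. Arsb, Galns, Arsa, Ids, Gusb and Idua, the other enzymes of this class, did not pass in either treatment, with values between -0.20 and 0.82 untreated and between -0.09 and 0.68 after bacteria.

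**Figure D2:**
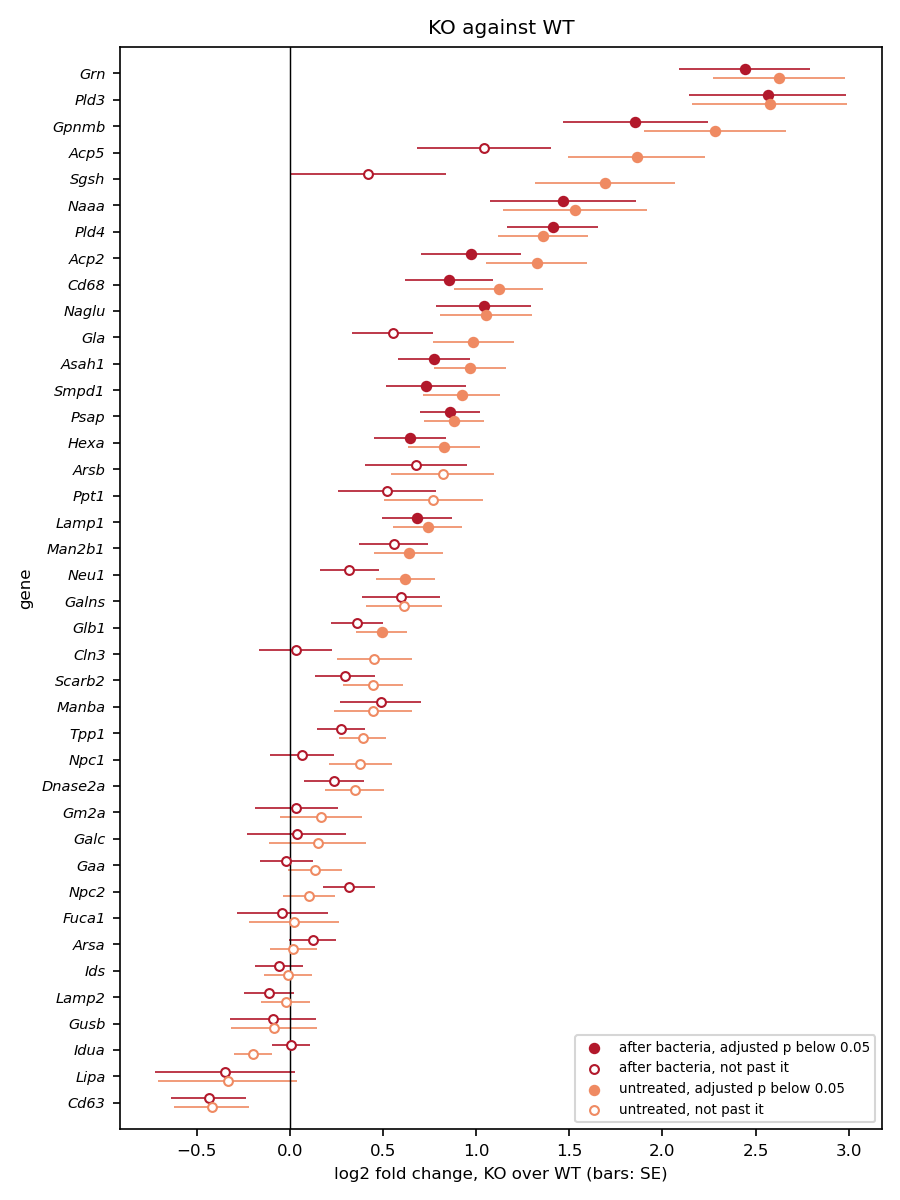
Log2 fold change of KO over WT for the 40 genes after bacteria (dark red) and untreated (orange), with bars of 1 SE from the edgeR fit of 12 libraries and filled circles for an adjusted p below 0.05. Grn, Pld3 and Gpnmb lie farthest right, and filled circles are on the right side of 0 alone in this fit, which has no block for library number; with that block Lipa and Cd63 were lower in KO.

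The markers of red pulp macrophages moved with these differences. Of the 14 genes of that list, 10 were higher in KO in each treatment and 0 lower. Vcam1, Adgre1, C1qa, C1qb, C1qc, Cd5l, Mertk, Slc40a1 and Marco were higher in both, Axl untreated and Spic after bacteria. Their sum ranged from 1205 to 3887 CPM in treated KO, from 1267 to 3711 CPM in untreated KO, from 491 to 903 CPM in treated WT and from 619 to 1127 CPM in untreated WT. Hmox1, which was not among the genes that passed, was the largest part of the sum in every library. It had 424, 998 and 1751 CPM in untreated KO and 336, 798 and 699 CPM in untreated WT. The median log2 fold change of the 14 by genotype was 2.696 untreated and 2.358 after bacteria, with 13 of the 14 positive in each. None of the 14 was at 0 in all libraries of a group, Cd163 was at most 1.33 CPM in every library, and Marco was at most 0.52 CPM in WT libraries. Of the 8 monocyte markers, 5 were higher and 1 lower in KO in each treatment, with sums from 942 to 1794 CPM in untreated KO and from 558 to 761 CPM in untreated WT, and from 999 to 1739 CPM in treated KO and from 758 to 1038 CPM in treated WT. Nr4a1 made up most of each WT sum and was lower in every KO library than in any WT library of the same treatment. The median log2 fold change of the 8 by genotype was 2.159 untreated and 2.152 after bacteria, with 6 of the 8 positive in each. Of the 6 pan-DC markers, Zbtb46 and Cd74 were lower in KO in each treatment, with sums from 17446 to 24709 CPM in untreated KO and from 27392 to 29077 CPM in untreated WT. Their sums after bacteria ranged from 23136 to 27329 CPM in KO and from 34593 to 37942 CPM in WT. Cd74, H2-Aa and H2-Ab1 made up most of each of these sums. Itgax was the 1 of the 6 with a positive log2 fold change in untreated KO (0.064), and 0 of the 6 were positive after bacteria. All 5 erythroid markers were higher in KO in each treatment, as were 5 of the 7 neutrophil markers untreated and 4 after bacteria. In KO the sum of the red pulp macrophage markers was lowest in number 1 and highest in number 3 in both treatments, and 12 of the 19 genes higher in untreated KO (63.2%) had the same order of the KO libraries in both treatments. Over all 40 genes it was 17 (42.5%), and over all tested genes 12.5%. The part of these cell markers in the genotype differences was not tested.

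**Figure D3:**
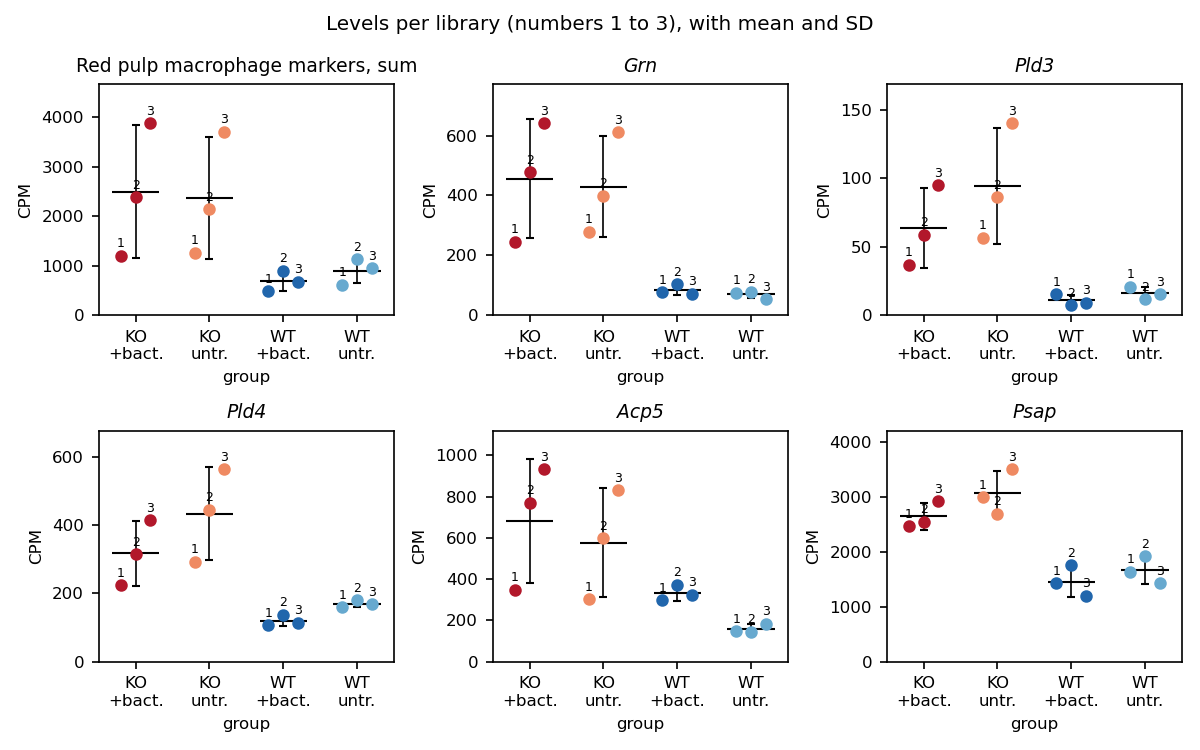
CPM in each library (points, numbered 1 to 3) of the summed 14 red pulp macrophage markers and of Grn, Pld3, Pld4, Acp5 and Psap in the 4 groups, with the mean (line) and SD (bar). KO number 3 is the highest KO point in every panel in both treatments. Hmox1 is the largest part of the marker sum in every library. In every panel but that of Acp5, all points of KO lie above all points of WT.

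Without both KO libraries numbered 3, a setting chosen after seeing the data, 9 of the 19 calls untreated and 5 of the 13 after bacteria were left, and the share of all tested genes called fell to 6.93% untreated and 6.97% after bacteria. Grn was then at 2.24 (adjusted p = 0.00202) untreated and 2.11 (adjusted p = 0.00229) after bacteria, and Pld3 at 2.13 (adjusted p = 0.00563) and 2.16 (adjusted p = 0.00497). Psap was at 0.735 (adjusted p = 0.032) and 0.79 (adjusted p = 0.0224). Calls fell to 10 untreated without KO number 3 or WT number 3 of that treatment and to 11 without WT number 2, where 5.83% to 7.63% of all tested genes were called. After bacteria they fell to 5 without KO number 3 or WT number 3, to 7 without KO number 2 and to 8 without WT number 1, where 6.95% to 11.9% of all tested genes were called. Acp2, Acp5, Asah1, Gpnmb, Grn, Pld3, Pld4 and Psap passed untreated, and Gpnmb, Grn, Pld3, Pld4 and Psap after bacteria, under every alternative planned.

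With bacteria, the genes of the set that passed the test went in both directions. In KO cells 3 of the 40 rose and 9 fell (30% in all), where 11.6% of all tested genes rose and 11.5% fell, 23.0% in all. In WT cells 4 rose and 5 fell (22.5%), where 10.6% of all tested genes rose and 8.07% fell, 18.7% in all. With directions pooled, the shares of members were near those of all tested genes in both genotypes, and nothing particular to the members is read from them. More members fell than rose, 9 against 3 in KO and 5 against 4 in WT. Of all tested genes, about as many rose as fell in KO, and more rose than fell in WT. Whether the members differed from all tested genes in direction was not tested. The median log2 fold change of the 40 was -0.246 in KO and -0.201 in WT, against -0.068 and -0.039 over all tested genes. With library totals alone in place of TMM factors, which shifted the median of all tested genes to -0.381 in KO and -0.354 in WT, 1 rose and 23 fell in KO and 1 rose and 20 fell in WT, where 40% and 35.2% of all tested genes were called. Of the 14 red pulp macrophage markers, 1 rose and 0 fell with bacteria in KO, and 2 rose and 1 fell in WT, and their part in the responses was not tested.

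Cln3 (chr7:126571207-126585817, minus strand, mm10), with 2 CACGTG motifs upstream of a RefSeq start inside this span, rose in both genotypes. It had 49.2, 44.8 and 49.5 CPM in treated KO and 23.0, 27.5 and 36.7 CPM in untreated KO, a log2 fold change of 0.72 (SE 0.20, adjusted p = 0.0205). It had 43.3, 57.4 and 39.7 CPM in treated WT and 23.6, 23.8 and 16.2 CPM in untreated WT, a log2 fold change of 1.14 (2.2-fold, SE 0.20, adjusted p = 0.00219). No treated library overlapped with an untreated library of its genotype. Cln3 shares 876 bases with Apobr on the other strand, and since the strand setting of the counting is not given in the sources used here, reads of the pair cannot be told apart.

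Npc2, the soluble carrier that hands cholesterol to the membrane protein NPC1, had 369, 409 and 405 CPM in treated KO and 264, 239 and 248 CPM in untreated KO, a log2 fold change of 0.66 (SE 0.14, adjusted p = 0.00523). In WT its levels were 285, 374 and 291 CPM treated and 201, 281 and 217 CPM untreated, a log2 fold change of 0.44 (SE 0.14, adjusted p = 0.0438). The treated libraries lay above the untreated in both genotypes, by a small step in WT. Lamp2, the membrane protein of chaperone-mediated autophagy, had 262, 313 and 325 CPM in treated KO and 194, 208 and 217 CPM in untreated KO, a log2 fold change of 0.54 (SE 0.13, adjusted p = 0.0115). In WT it had 293, 395 and 284 CPM treated and 209, 203 and 217 CPM untreated, a log2 fold change of 0.63 (SE 0.13, adjusted p = 0.0065). Treated and untreated libraries of Lamp2 did not overlap in either genotype. Gla had 65.8, 71.8 and 75.1 CPM in treated KO and 48.4, 46.4 and 63.6 CPM in untreated KO, and 0.43 (SE 0.21, adjusted p = 0.179) did not pass without a block. With a block for genotype and number, which compares libraries of the same number within a genotype, Gla rose by 0.44 in KO (adjusted p = 0.00805). Its WT levels of 63.1, 41.5 and 40.7 CPM treated and 33.9, 19.2 and 26.9 CPM untreated gave a log2 fold change of 0.86 (SE 0.22, adjusted p = 0.0175). The groups did not overlap in either genotype.

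Sgsh (chr11:119343425-119355536, minus strand, mm10) had the largest fall of the 40. It had 1.26, 1.39 and 1.68 CPM in treated KO and 5.29, 9.09 and 11.0 CPM in untreated KO, a log2 fold change of -2.55 (5.87-fold lower, SE 0.40, adjusted p = 0.000663). In WT it had 1.34, 1.16 and 0.758 CPM treated and 3.46, 3.08 and 1.30 CPM untreated, a log2 fold change of -1.28 (SE 0.41, adjusted p = 0.0451). In KO the treated libraries lay far below the untreated, while in WT untreated number 3 overlapped with the treated libraries. The treated levels of both genotypes were close to 1 CPM, which was 16 to 24 counts per library. Smpd1 had 3.83, 5.51 and 5.19 CPM in treated KO and 8.97, 9.92 and 11.0 CPM in untreated KO, a log2 fold change of -1.04 (2.06-fold lower, SE 0.21, adjusted p = 0.00358). In WT it had 2.90, 2.91 and 2.94 CPM treated and 6.49, 4.46 and 4.82 CPM untreated, a log2 fold change of -0.85 (SE 0.21, adjusted p = 0.0167). The treated WT libraries were almost equal to each other and below all untreated ones.

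Other glycan enzymes that fell were Manba, Naglu, Galc and Glb1. Manba had 6.77, 5.45 and 6.03 CPM in treated KO and 10.3, 10.6 and 12.7 CPM in untreated KO, a log2 fold change of -0.88 (SE 0.21, adjusted p = 0.0105). In WT it had 3.46, 3.89 and 5.59 CPM treated and 8.14, 9.54 and 6.92 CPM untreated, a log2 fold change of -0.92 (SE 0.22, adjusted p = 0.0116). For Naglu the levels in KO were 7.49, 10.3 and 13.2 CPM treated and 16.1, 17.1 and 21.7 CPM untreated, a log2 fold change of -0.83 (SE 0.25, adjusted p = 0.0292). For Naglu in WT they were 6.64, 4.94 and 3.55 CPM treated and 8.99, 9.49 and 7.94 CPM untreated, a log2 fold change of -0.81 (SE 0.25, adjusted p = 0.0422). Neither gene overlapped between treatments in either genotype. Galc had 15.1, 8.24 and 13.5 CPM in treated KO and 20.2, 20.5 and 28.4 CPM in untreated KO, a log2 fold change of -0.91 (SE 0.26, adjusted p = 0.0263). In WT, Galc had 14.2, 9.18 and 12.6 CPM treated and 18.2, 27.5 and 16.6 CPM untreated, and -0.80 (SE 0.26, adjusted p = 0.0536) did not pass without the block (adjusted p = 0.0275 with it), though the groups were apart in both genotypes. Glb1 had 14.1, 17.5 and 16.5 CPM in treated KO and 22.3, 22.0 and 21.4 CPM in untreated KO, a log2 fold change of -0.45 (SE 0.14, adjusted p = 0.0343). Its WT levels were 14.1, 12.0 and 11.4 CPM treated and 16.1, 16.9 and 13.7 CPM untreated, which overlapped, and -0.32 (SE 0.14, adjusted p = 0.133) did not pass.

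Npc1, Dnase2a and Scarb2 complete the genes that fell. Npc1, the cholesterol exporter of the lysosomal membrane, had 82.7, 105 and 110.0 CPM in treated KO and 118, 163 and 201 CPM in untreated KO, a log2 fold change of -0.70 (SE 0.17, adjusted p = 0.0116). In WT it had 97.0, 90.2 and 97.2 CPM treated and 110.2, 125 and 135 CPM untreated, and -0.38 (SE 0.17, adjusted p = 0.14) did not pass without the block (adjusted p = 0.0106 with it). Its partner Npc2 rose in both genotypes. Dnase2a had 29.5, 28.0 and 34.9 CPM in treated KO and 36.7, 48.5 and 57.1 CPM in untreated KO, a log2 fold change of -0.62 (SE 0.16, adjusted p = 0.0133). In WT it had 26.5, 26.5 and 25.4 CPM treated and 32.2, 41.4 and 38.2 CPM untreated, a log2 fold change of -0.51 (SE 0.16, adjusted p = 0.041). The treated and untreated libraries of Dnase2a were apart in both genotypes. Scarb2 had 66.9, 55.7 and 83.3 CPM in treated KO and 82.2, 99.7 and 123 CPM in untreated KO, a log2 fold change of -0.56 (SE 0.16, adjusted p = 0.0244). Treated KO number 3 overlapped with untreated KO number 1 for Scarb2. In WT, Scarb2 had 59.1, 57.1 and 51.4 CPM treated and 70.7, 79.3 and 73.0 CPM untreated, and -0.41 (SE 0.16, adjusted p = 0.0947) did not pass without the block (adjusted p = 0.0104 with it).

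The 8 CACGTG genes did not move one way with bacteria. Cln3 rose in both genotypes and Gla in WT, Sgsh and Naglu fell in both and Glb1 in KO, and Arsa, Gaa and Lamp1 did not pass in either. With the block for genotype and number, Gla also rose in KO and Gaa in WT (0.33, adjusted p = 0.0265). Of the genes that differed most by genotype, Grn, Pld3 and Gpnmb did not pass for bacteria without the block. They were at log2 fold changes of 0.08, -0.57 and -0.84 in KO and of 0.27, -0.56 and -0.41 in WT. With the block, Pld3 fell in both genotypes (adjusted p = 0.000344 in KO and 0.00131 in WT) and Gpnmb in KO (-0.84, adjusted p = 0.00515). The responses and the genotype differences are computed from the same libraries.

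**Figure D4:**
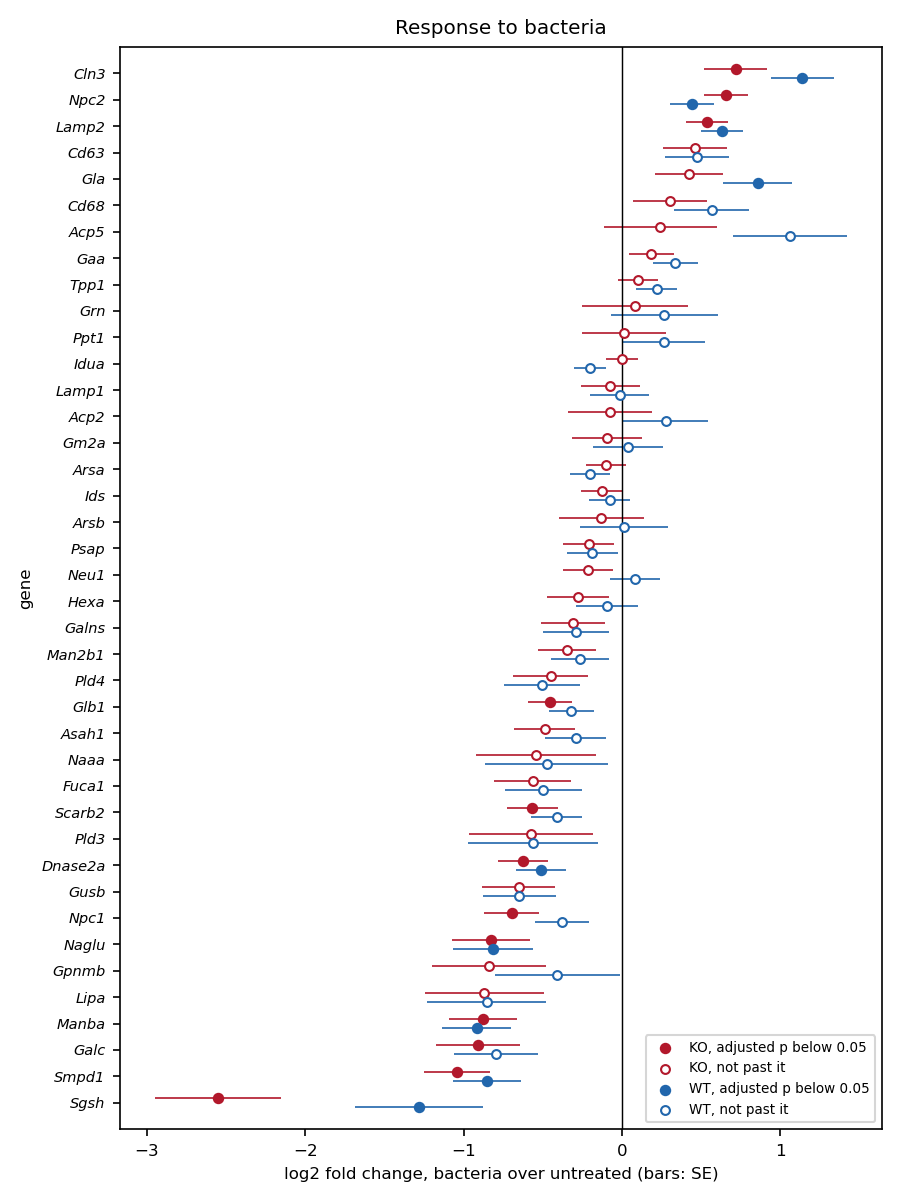
Log2 fold change of treated over untreated cells for the 40 genes in KO (red) and WT (blue), with bars of 1 SE and filled circles for an adjusted p below 0.05. Cln3, Npc2 and Lamp2 are filled on the right in both genotypes, and Sgsh, Smpd1, Manba, Naglu and Dnase2a on the left.

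Libraries of the same genotype and number deviated together from their group means, and a fit with a block for genotype and number, which uses that pairing, called 25 genes in each genotype. In KO 6 rose and 19 fell, where 34.9% of all tested genes were called. In WT 9 rose and 16 fell, where 31.9% were. All 12 calls of KO and all 9 of WT made without the block were among them, and the added calls were 13 in KO and 16 in WT. With the block, Lipa fell by 0.84 in KO (adjusted p = 1.602e-05) and by 0.89 in WT (adjusted p = 1.194e-05) on the log2 scale. Its libraries numbered 1 were far below numbers 2 and 3 in every group, with 176, 351 and 327 CPM in treated KO, 283, 626 and 649.7 CPM in untreated KO, 212, 467 and 408 CPM in treated WT and 451, 769 and 742 CPM in untreated WT. Each treated library of Lipa was below the untreated library of its own number. Pld3 and Pld4 fell with the block in both genotypes, by 0.58 and 0.44 in KO and by 0.58 and 0.51 in WT, as did Gusb, Fuca1, Naaa, Asah1 and Man2b1. Cd63 rose by 0.45 in KO and 0.48 in WT, and Cd68 by 0.31 and 0.57.

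Of these counts, that of KO fell to 5 without untreated KO number 3, to 7 without treated KO number 2 and to 4 without both KO libraries numbered 3, in the fit without the block. Of all tested genes 14.9%, 15.3% and 10.6% were then called. That of WT fell to 5 without treated WT number 2 or 3 or untreated WT number 1 or 2, where 10.2% to 15.6% of all tested genes were called, and rose to 15 without both KO libraries numbered 1, where 20.8% were. The median of the 40 in KO was -0.127 without untreated KO number 3. Sgsh, Smpd1 and Npc2 in KO, and Cln3 and Manba in WT, passed under every alternative planned. Of these, Npc2 in KO and Manba in WT each failed to pass in 1 setting chosen after seeing the data.

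Whether the response to bacteria differed by genotype was tested by the interaction, the KO response minus the WT response. Of the 40 genes 0 passed in edgeR's quasi-likelihood test, where 0 of 14293 tested genes passed (0%), and the DESeq2 Wald test also called 0 of the 40. At an unadjusted p below 0.05 there was 1 of the 40 and 608 of all tested genes. The 1 was Sgsh, at -1.27 (SE 0.56, unadjusted p = 0.0423), from responses of -2.55 in KO and -1.28 in WT. The median over the 40 was -0.115, against -0.025 over all tested genes. With the block for genotype and number, 1 of the 40 passed, where 0.287% of all tested genes did: Acp5, at -0.82 (SE 0.15, adjusted p = 0.0308). With that block Acp5 rose by 1.07 on the log2 scale in WT (adjusted p = 4.287e-06), where all 3 treated libraries were above all untreated ones, and its KO response with the block was 0.24 (adjusted p = 0.0888), each treated KO library lying above the untreated one of its number.

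Genes of the same pathway outside the 40 were counted for comparison. Of all tested genes, 9.50% were higher and 3.46% lower in untreated KO, and 9.21% were higher and 4.89% lower after bacteria. With bacteria 11.6% of all tested genes rose and 11.5% fell in KO, and 10.6% rose and 8.07% fell in WT. Of 28 other lysosomal hydrolases, 8 were higher and 2 lower in untreated KO, and 8 higher and 1 lower after bacteria. Among the largest differences were those of Pla2g15, a lysosomal phospholipase (3.78 untreated and 4.00 after bacteria), Smpdl3b (3.01 and 3.05), and Pcyox1 (2.01 and 2.10). Smpdl3a was at 1.45 after bacteria. With bacteria 1 of the 28 rose and 3 fell in each genotype, the falls including Hpse, the heparanase, by 0.62 in KO and 1.00 in WT, and the peptidase Dpp7, by 0.48 in KO and 0.76 in WT. Of 34 other membrane proteins and carriers, 7 were higher and 2 lower in untreated KO, and 4 were higher and 4 lower after bacteria. Slc11a1, the metal transporter of phagosomes, had the largest value at 2.23 untreated and 2.57 after bacteria. With bacteria 7 of the 34 rose and 6 fell in KO, and 7 rose and 1 fell in WT, with Sppl2a, an intramembrane protease, at 1.61 in KO and 1.31 in WT. Slc29a3 itself is on this list and rose by 1.00 in KO and by 1.03 in WT. Of 25 genes that sort lysosomal enzymes, 1 was higher and 1 lower in untreated KO and 2 were lower after bacteria. With bacteria 2 of them rose and 8 fell in KO, and 2 rose and 6 fell in WT. M6pr, a mannose 6-phosphate receptor, rose by 0.73 and 0.52, and Hps3, Hps4, Hps5 and Hps6 fell in both genotypes. All these values are log2 fold changes from the same fit.

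Of the 4 MiT/TFE factors, which are known to bind motifs of this kind, none passed the threshold upward in the 5 comparisons of the fit without a block. With bacteria 2 of the 4 had positive log2 fold changes in each genotype, up to 0.685 in KO and 0.499 in WT. Tfeb had 44.2, 58.4 and 31.6 CPM in treated KO, 75.8, 96.5 and 101 CPM in untreated KO, 67.5, 71.0 and 76.7 CPM in treated WT and 88.3, 96.3 and 103 CPM in untreated WT. It fell by 1.03 in KO with bacteria (adjusted p = 0.00185), and its WT response was -0.42 (adjusted p = 0.132). Tfeb was lower in treated KO than in treated WT, at -0.68 (adjusted p = 0.0294), while the untreated difference was -0.07 and did not pass. The difference in response, -0.61, did not pass in the interaction. Mitf and Tfec were lower in untreated KO, at -0.94 (adjusted p = 0.0293) and -1.62 (adjusted p = 0.0442), Tfec at no more than 7.44 CPM in any library. Tfe3 did not pass in any comparison. Mcoln1, the gene of the lysosomal calcium channel TRPML1, did not pass either, at -0.34 in KO (adjusted p = 0.0586) and -0.25 in WT with bacteria.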

How the data were processed

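RNA of 12 libraries was primed with random hexamers and read from both ends on a NovaSeq, per the labels' protocols. The authors deposited raw counts per gene, with base calls from CASAVA 1.8 and alignment by HISAT2 to mm10, per the submitters' processing notes. How reads were counted, on which strand and with which annotation is not given in the sources used here. All 40 members and the gene lists were chosen with earlier results of these data known.

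Counts were analysed in R 4.3.3 with edgeR 4.0.16: filterByExpr on the 4 groups, TMM factors, and a robust quasi-likelihood fit of 4 group means to all 12 libraries. Adjustment was Benjamini and Hochberg's, over 14293 genes within each of 5 contrasts, with 0.05 as threshold. SE is the size of the log2 fold change divided by the root of F. CPM values use the TMM factors. Every member is named, and values of each library are given for members past the threshold, up to the 12 with the largest change in a contrast.

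Labels do not say what a library number marks. Deviations from group means correlated across treatment in 6 of 6 same-number pairs within genotype (r from 0.226 to 0.53), so the numbers were taken to pair these libraries. Across genotype, 3 of 3 pairs after bacteria and 2 of 3 untreated were above 0.1, and results with a block for library number stand beside those without it where they differ in a call. Libraries were compared for duplicates, and 0 were identical. Some genes of the lists of other lysosomal genes are not reported here. Promoters are RefSeq's, GRCm38.p6. Alternatives were other scalings, DESeq2 1.42.0, other filters, only the groups compared, replicate blocks and leaving out libraries. Plots used matplotlib 3.10.9 and pandas 2.3.3.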

Additional observations from a re-analysis of the deposited data

How the results depend on the processing

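Genes of the set that passed in each comparison, 12 for bacteria in KO, 9 for bacteria in WT, 19 for KO over WT untreated, 13 for KO over WT after bacteria and 0 for the interaction, were counted again under each alternative. Library totals alone gave 24 in KO and 21 in WT for bacteria, with medians of the 40 of -0.569 and -0.517, where 40% and 35.2% of all tested genes were called. By that alternative's construction all genes shift down: the median of all tested genes moved to -0.381 and -0.354. The replicate block across all groups gave 15 in WT for bacteria, 23 for KO over WT untreated and 17 after bacteria, of which 2 (Lipa and Cd63) were lower in KO in each, where 24.8%, 18.1% and 20.6% of all tested genes were called. The replicate block within genotype gave 25 in KO, 25 in WT and 1 in the interaction, where 34.9%, 31.9% and 0.287% of all tested genes were called. Leaving out 1 library at a time gave 5 to 13 in KO, 5 to 12 in WT, 10 to 19 for KO over WT untreated and 5 to 14 after bacteria, and 0 in the interaction. Chosen after seeing the data, leaving out both KO libraries numbered 3 gave 4 in KO, 9 for KO over WT untreated and 5 after bacteria (10.6%, 6.93% and 6.97% of all tested genes), and leaving out both numbered 1 gave 15 in WT (20.8%). The median difference by genotype in untreated cells was 0.419 without untreated WT replicate 3, that after bacteria 0.299 without treated WT replicate 3, and that of the KO response -0.127 without untreated KO replicate 3. The median of the interaction, leaving out 1 library at a time, ranged from -0.189 without treated KO replicate 3 to 0.047 without untreated KO replicate 3. Apart from library totals, the causes were not tested. No called gene of the set changed sign under any alternative. Sgsh, Smpd1, Galns, Gpnmb and Manba hold the fewest counts of the 40, with 774, 1263, 1605, 1607 and 1642 over the 12 libraries.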
